A study of Mus musculus with 4 samples.

Results

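The reads described here are the shortest that the fetal liver libraries hold, those of 16 or 17 nt, as far as they come from a microRNA (miRNA) hairpin. A read was included when it matched, without mismatch and on the sense strand, exactly 1 of the 2202 mouse miRNA hairpins of GENCODE vM21. This gave 4948 distinct reads of the 7023820 distinct reads of any length, and they lay on 650 hairpins. They are called short reads below, and the 17492 distinct reads of 18 to 27 nt that matched exactly 1 hairpin, the lengths in which mature miRNAs lie, are their comparison.

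The libraries are of small RNA from the fetal liver of wildtype mice and of mice with a catalytic dead Ago2 (Ago2 CD), with 2 libraries per genotype, which the series' design calls biological replicates. The labels give no age, strain or further allele. Libraries held 13138065 to 21875540 reads. The longest read had 50 nt in replicate 1 of wildtype and replicate 2 of Ago2 CD, but 46 nt in replicate 2 of wildtype and replicate 1 of Ago2 CD, so each genotype had 1 library of each read length, called 50 nt and 46 nt libraries below.

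Most miRNAs are cut from a long transcript by Drosha and then from the hairpin by Dicer, which leaves a 5p and a 3p arm, and 1 arm is loaded into an Argonaute protein. The 5′ end of a loaded arm sets its seed (bases 2 to 8), which pairs with target RNAs, and is mostly kept, while the 3′ end is often shortened or extended. Ago2 is the mouse Argonaute with a well known ability to cut RNA, and mir-451a, abundant in red blood cell precursors, is made by that cut in place of Dicer, after which its 3′ end is trimmed. A very short read can therefore be a mature arm shortened at its 3′ end, one shortened at its 5′ end, or a piece from inside.

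Fetal liver is a site of blood formation, and the 3 hairpins with the most short reads, mir-144, mir-451a and mir-142, are known from blood cells. The mature arms below are shown because short reads of each are described in the text. The sequences are from RefSeq (GRCm38.p6), 5′ to 3′, and capitals mark the seed. The seeds of miR-25-3p and miR-92a-3p are the same, and no other pair among those shown shares one.
miR-144-3p: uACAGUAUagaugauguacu
miR-142a-3p: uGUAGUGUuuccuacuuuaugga
miR-451a: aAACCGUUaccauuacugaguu
miR-21a-5p: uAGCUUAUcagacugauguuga
miR-25-3p: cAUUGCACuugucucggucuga
miR-92a-3p: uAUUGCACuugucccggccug
miR-127-3p: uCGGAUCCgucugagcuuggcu
miR-30e-5p: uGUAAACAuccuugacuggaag
miR-376b-3p: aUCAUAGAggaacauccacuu
miR-377-3p: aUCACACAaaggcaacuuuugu
miR-136-3p: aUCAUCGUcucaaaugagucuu
miR-652-3p: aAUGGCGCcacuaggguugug

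Leading short reads follow, because the ends of most of them carry the patterns described later. The mir-144 reads shown do not carry the pattern of TG after the 3′ end. Lower case is the read itself, and capitals are the hairpin bases that come next after its 3′ end and are not in the read.
mir-144, bases 43 to 59: tacagtatagatgatgtACTAGTC
mir-144, bases 46 to 62: agtatagatgatgtactAGTC
mir-142, bases 41 to 56: gtagtgtttcctacttTATGGATG
mir-142, bases 40 to 56: tgtagtgtttcctacttTATGGATG
mir-21a, bases 18 to 34: tagcttatcagactgatGTTGACTG
mir-25, bases 52 to 68: cattgcacttgtctcggTCTGACAG
mir-127, bases 43 to 59: tcggatccgtctgagctTGGCTGGT
mir-30e, bases 17 to 32: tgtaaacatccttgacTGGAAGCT
mir-30d, bases 12 to 27: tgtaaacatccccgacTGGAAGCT
mir-140, bases 6 to 21: cagtggttttaccctaTGGTAGGT
mir-376b, bases 54 to 70: atagaggaacatccactTTTTCAGT
mir-377, bases 47 to 62: acacaaaggcaactttTGTTTG
mir-136, bases 46 to 61: gtctcaaatgagtcttC
mir-136, bases 5 to 21: actccatttgttttgatGATGGATT
mir-652, bases 61 to 77: aatggcgccactagggtTGTGCAGT
mir-451a, bases 27 to 42: cattactgagtttagtAATGGTAA

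Short reads numbered 257779 in wildtype replicate 1, 431955 in wildtype replicate 2, 789344 in Ago2 CD replicate 1 and 168462 in Ago2 CD replicate 2. Of the hairpin reads of 16 to 27 nt they made up 2.79%, 4.89%, 5.85% and 2.43%, in the same order. The widest of the exact 95% intervals of these shares, which cover counting error only, ran from 4.87% to 4.90%. The 2 libraries with the higher shares were the 46 nt libraries, 1 of each genotype, and the genotypes overlapped.

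Wildtype had a mean short share of 3.84% ± 1.49 (SD, n = 2), and Ago2 CD one of 4.14% ± 2.41 (SD, n = 2). The difference of 0.302 points was smaller than the spread within either genotype (exact permutation test, two-sided, p = 1, where 0.333 is the smallest value that 2 against 2 libraries allow). Between the 46 nt libraries the mutant was higher by 0.959 points, and between the 50 nt libraries it was lower, by -0.354 points. Without the short reads that hairpin bases TG follow, directly or after 2 bases, the mutant was higher within both read lengths, by 0.691 and 0.269 points. The sign also turned, to -0.382 points, when only reads of 16 nt were counted, and to -0.399 points without mir-451a, when the shares were 2.37%, 6.66%, 5.84% and 2.39%.

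Reads of 17 nt differed more between libraries than reads of 16 nt. They were 1.04%, 3.02%, 4.08% and 1.42% of all reads of 16 nt or more on 1 hairpin, while reads of 16 nt were 1.67%, 1.82%, 1.76% and 1.01%. The 46 nt libraries had the 2 highest shares at both lengths, by a wider margin at 17 nt.

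Short reads came from few sequences. The 10 most frequent held 62.7% and 71.4% of the short reads of the wildtype libraries and 76.3% and 48.7% of those of the mutant libraries. Short reads were found on 357, 398, 477 and 439 hairpins. Across hairpins, short and 18 to 27 nt counts went together (Pearson r of log10 counts 0.852 to 0.903 over 333 to 430 hairpins per library, a description in which both counts share a library). Within a hairpin the short share ranged widely: among the 110 hairpins with at least 1000 reads of 18 to 27 nt in every library and a leading read whose first 16 nt lie in no other hairpin, the mean short share ran from 0.260% to 19.9%, with a median of 2.55%.

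The hairpin with the most short reads was mir-144 (chr11:78073005-78073070, plus strand, GRCm38, inside no other annotated gene of its strand), a miRNA of red cell precursors that lies beside mir-451a. Its short reads were 0.889% and 7.01% of its reads in wildtype replicates 1 and 2, against 6.16% and 1.38% in the mutant replicates. The 46 nt libraries stood above the 50 nt libraries, and the genotypes overlapped. Its leading short read, bases 43 to 59, is the mature 3p arm without its last 3 bases, and was counted 379, 89834, 236535 and 735 times. The read of bases 46 to 62 keeps the 3′ end and lacks the first 3 bases of the arm, seed bases included, and was counted 8229, 9323, 37631 and 24412 times. In the 46 nt libraries 80.1% and 73.9% of the short reads of mir-144 began at the arm's 5′ end, and in the 50 nt libraries 81.6% and 81.1% ended at its 3′ end.

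In mir-142, a hairpin of white blood cells (chr11:87756864-87756927, plus strand, in an intron of the lincRNA gene Mir142hg), the short share was 3.50% and 19.0% in wildtype against 16.4% and 3.47% in the mutant. The read of bases 41 to 56 was counted 16, 64124, 128969 and 52 times, and the read of bases 40 to 56 54, 60857, 104351 and 429 times. Both were almost confined to the 46 nt libraries. The 50 nt libraries had in their place 6734 and 9285 copies of a short read of bases 42 to 58 of the same arm, against 12 and 19 in the 46 nt libraries.

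The mature 3p arm of mir-142 itself differed in the same way. Its reads that start at base 40 or 41 and end before the bases TGG numbered 273201, 125763, 235697 and 314630, and those that end in or after TGG numbered 7511, 416397, 873565 and 12465. In the 50 nt libraries nearly all reads of that arm thus stopped at the base before TGG, or 1 or more bases earlier. The most frequent reads there were bases 40 to 58 and 41 to 58, with 156291 and 116727 copies in wildtype replicate 1 and 151783 and 161355 in Ago2 CD replicate 2.

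Other hairpins were high in the 46 nt libraries. In mir-21a, made in many tissues and known for its high level in many tumours (chr11:86584067-86584158, minus strand, in an exon of Vmp1), the short share was 0.576%, 7.39%, 7.86% and 0.718%, and the read of bases 18 to 34 was counted 11, 6800, 19992 and 26 times. A read 2 nt longer, bases 18 to 36, showed the reverse, with 7509, 100, 345 and 11621 copies. In mir-25, a member of the mir-17 to mir-92 family group (chr5:138165321-138165404, minus strand, in an exon of Mcm7), the short share was 0.278%, 13.9%, 13.4% and 0.398%. Its read of bases 52 to 68 was counted 12, 5688, 12145 and 25 times, and the read 2 nt longer 8281, 186, 401 and 19907 times. In both hairpins a 17 nt read of the 46 nt libraries was matched by a 19 nt read of the 50 nt libraries.

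A hairpin known from liver cells showed the same order. In mir-122, the abundant miRNA of hepatocytes (chr18:65248861-65248926, plus strand), which had 119429, 456051, 1345241 and 277931 reads of 18 to 27 nt, the short share was 1.09%, 2.80%, 2.20% and 0.978%. Its short reads began at the 5′ end of an arm in 76.4% and 70.5% of cases in the 46 nt libraries and in 12.0% and 13.6% in the 50 nt libraries. All 6 tested hairpins of the hepatocyte list, mir-21a among them, had the higher short share in both 46 nt libraries. The same held for 109 of all 240 hairpins tested.

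A further group was high in the 50 nt libraries. The 5p arm of mir-140, a miRNA best known from cartilage (chr8:107551244-107551313, plus strand, in an exon of Wwp2), gave 1757, 0, 0 and 1512 copies of the read of bases 6 to 21, and its short share was 42.7%, 2.26%, 2.18% and 32.5%. A count of 0 allows up to 3 reads. The same held for mir-30d (chr15:68341208-68341289, minus strand, in an exon of the lincRNA gene Gm20732), with 2044, 0, 0 and 2823 copies of bases 12 to 27, and for its family member mir-30e (chr4:120772606-120772697, minus strand, in an intron of Nfyc), with 3427, 2, 5 and 3673 copies of bases 17 to 32. For mir-127, from the imprinted miRNA cluster of chromosome 12 (chr12:109592846-109592915, plus strand), bases 43 to 59 were counted 5628, 11, 8 and 7823 times and the short share was 20.2%, 4.34%, 4.18% and 18.2%. In all 4 of these reads, shown above, the next hairpin bases are TGG.

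The short share of mir-101b, which lies in an intron of Rcl1, was 21.9%, 0.586%, 0.494% and 26.1%. Its leading read is followed by TG. In mir-652 (chrX:142739000-142739097, plus strand, in an intron of Tmem164) the share was 8.10%, 23.8%, 24.2% and 6.82%, with the 46 nt libraries higher. Its leading read was counted 202, 690, 2112 and 446 times, although TG follows it directly. The lowest mean shares were those of mir-299a, mir-541, mir-193a, mir-434 and mir-380, at 0.122% to 0.944% in single libraries. All but mir-193a belong to the imprinted cluster of chromosome 12, as do mir-127, mir-376b and mir-377 with their high shares in the 50 nt libraries.

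Bases after the 3′ end of short reads were then read from the hairpins, for all short reads but those of mir-451a. The motif searched was TG, on the sense strand only. The template continued with TG directly after 50.7%, 3.82%, 4.11% and 39.8% of the short reads, while 9.54% of all 16 and 17 nt windows of these hairpins are so followed. For reads of 18 to 27 nt, again without mir-451a, the values were 21.3%, 19.5%, 17.7% and 19.1%. TG after 2 further bases followed 2.88%, 50.8%, 43.2% and 3.30% of the short reads, against 9.51% of windows. It followed 4.70%, 9.39%, 7.87% and 4.24% of those reads of 18 to 27 nt. Outside mir-451a, short reads of the 50 nt libraries thus tended to stop directly before TG and those of the 46 nt libraries 2 bases before TG. Over all short reads, mir-451a included, TG came directly after 25.9%, 3.19%, 4.10% and 39.4%, and after 2 bases in 34.0%, 45.97%, 43.1% and 4.18%. In wildtype replicate 1 more short reads then stopped 2 bases before TG than directly before it, and the leading read of mir-451a there, bases 27 to 42 with 67669 copies, is of that kind.

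The same order held with mir-144 and mir-142 left out as well. TG came directly after 52.7%, 8.56%, 9.59% and 47.6% of the remaining short reads, and after 2 bases in 3.94%, 45.4%, 45.8% and 4.73%. It also held when each hairpin counted once. Of hairpins with at least 50 short reads in a library, the leading short read was followed directly by TG in 38 of 102, 9 of 122, 12 of 149 and 42 of 121, and by TG after 2 bases in 4, 44, 50 and 5.

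Reads 2 nt longer mirrored this, again with mir-451a left out of the counts. The hairpin reads to which the counts are scaled still include mir-451a, which filled far more of them in wildtype. The scaled values thus describe the library kinds and do not compare the genotypes. The 682 distinct short reads with TG after 2 bases, from 273 hairpins, summed to 275, 18340, 23961 and 746 per 1000000 hairpin reads. The 440 reads that start at the same base and end 2 bases later, directly before TG, summed to 40624, 3090, 5129 and 68731 per 1000000. Short reads of neither kind summed to 4993, 18177, 32288 and 14090 per 1000000, with the 46 nt libraries still above the 50 nt libraries. That order rested largely on 1 read, mir-144 bases 43 to 59. It gave 379, 89834, 236535 and 735 of the 47580, 162417, 435916 and 97568 reads of neither kind.

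As background, the 3′ adapter of the small RNA kit named in the labels begins with TGG, and cutadapt, which the submitters' processing notes name, removes sequence that matches an adapter. The trimming settings are not given in the sources used here. The part of adapter removal in these short reads was not tested.

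The 5′ side differed between the same libraries. The bases ATC come directly before 17.5%, 0.174%, 0.182% and 14.05% of the short reads without mir-451a, and before 0.923% of the windows (sense strand only). They come before 2.08%, 0.458%, 0.687% and 2.06% of the reads of 18 to 27 nt without mir-451a. Reads of 18 to 27 nt that begin with ATC made up 0.0111%, 3.31%, 2.90% and 0.00865% of such reads without mir-451a. Reads beginning with ATC were thus nearly missing from the 50 nt libraries at mature lengths too. The kit's 5′ adapter ends with ATC, as background, and its part was likewise not tested.

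This is seen in 3p arms that begin with ATC. In mir-376b (chr12:109723458-109723539, plus strand), reads of 16 to 27 nt that start at base 51, the mature 5′ end, numbered 21, 73658, 169930 and 35, and those that start 3 bases later, after ATC, numbered 46375, 1018, 2662 and 72292. In mir-377 (chr12:109740510-109740577, plus strand, in an exon of the lincRNA gene Mirg) the mature start had 23, 25255, 66998 and 19 reads, and the start 3 bases later 18395, 158, 421 and 24842. In mir-23a (chr8:84208518-84208592, plus strand) the values were 1, 10077, 23180 and 1 at the mature start, and 6783, 175, 376 and 9618 at the start 3 bases later. The 3p arm of mir-136 (chr12:109595327-109595388, plus strand) begins with ATCATC, and its short read of bases 46 to 61, which starts just after those letters, was counted 2774, 3, 10 and 3141 times. The 46 nt libraries had a read of its 5p arm in the lead, bases 5 to 21, with 6, 4310, 9767 and 12 copies. The short share of mir-136 was 4.62%, 6.73%, 7.06% and 5.75%, with a small gap between the library kinds although the leading reads differed.

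Most short reads of mir-376b and mir-377 in the 50 nt libraries lay inside the arm. Reads inside the arm were 93.8%, 8.75%, 11.1% and 92.9% of the short reads of mir-376b and 93.9%, 8.74%, 10.2% and 91.2% of those of mir-377. A read that starts after ATC lacks bases 2 and 3 of the mature arm, which belong to its seed. The short shares of mir-376b were 14.3%, 3.94%, 3.70% and 13.4%, and those of mir-377 16.2%, 4.79%, 4.98% and 15.98%.

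Each short read was then placed by the ends of the most frequent 18 to 27 nt read of its arm. It could share the 5′ end, share the 3′ end, lie inside, or reach beyond one end. Reads that share the 5′ end made up 18.1% and 47.1% of short reads in wildtype against 59.2% and 23.7% in the mutant. The mean was higher by 8.82 points in the mutant (exact permutation test, two-sided, p = 0.667), by 12.1 points within the 46 nt libraries and 5.58 within the 50 nt libraries, and the genotypes overlapped. Without mir-451a the shares were 30.2%, 60.3%, 59.2% and 23.3%, the sign turned, and the difference became -3.99 points.

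Without mir-451a the other classes also differed by read length. Reads that share the 3′ end were 24.9%, 10.8%, 15.2% and 36.1% of short reads. Reads inside the arm were 38.2%, 8.49%, 9.69% and 34.5%, and reads beyond an end 6.61%, 20.4%, 15.9% and 6.12%. In the 46 nt libraries most reads beyond an end were 1 read, mir-142 bases 40 to 56, with 60857 and 104351 copies. That read starts at the RefSeq 5′ end of miR-142a-3p, but the reference read of the arm starts at base 41. Over all short reads the split by read length did not hold for each class: reads beyond an end were 45.7%, 25.5%, 15.8% and 6.16%, highest in wildtype replicate 1, and reads that share the 3′ end 20.04%, 17.5%, 15.2% and 36.2%. At 18 to 27 nt, reads inside the arm were 0.439% to 1.04% in the 4 libraries, and 0.716% to 1.09% without mir-451a.

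Short reads kept the 5′ end of their arm less often than reads of 18 to 27 nt did, in 4 of 4 libraries, by a mean of -49.3 points. They kept the 3′ end less often too, in 4 of 4 libraries, by -39.4 points, which became -25.1 points without short reads directly followed by TG or by TG after 2 bases. A read of 16 or 17 nt cannot keep both ends of a longer reference read, and the 18 to 27 nt reads hold the reference reads themselves, so such deficits follow largely from the definition and are given as a description.

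A few hairpins had the same class of short read in every library. For mir-652, 91.3%, 94.4%, 94.8% and 91.3% of short reads shared the 5′ end of the 3p arm. In mir-28a, of the same family as mir-708 (chr16:24827855-24827940, plus strand, in an intron of Lpp), the values were 92.4%, 97.9%, 97.1% and 90.3%, but the leading read ended at base 30 in the 50 nt libraries (144, 0, 6 and 212 copies) and at base 29 in the 46 nt libraries (0, 182, 289 and 1). The 5p arm of mir-411 (chr12:109710175-109710256, plus strand) gave 484, 469, 763 and 759 copies of a single 17 nt read from its 5′ end. The classes of mir-652, mir-28a and mir-411 overlapped between genotypes.

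Reads that share the 3′ end led in mir-92-1 (chr14:115044427-115044506, plus strand, in an exon of Mir17hg), which gives miR-92a-3p. They were 86.3%, 92.7%, 93.9% and 91.7% of its short reads, so that these reads lack the seed end of the arm. In mir-494 the values were 75.0%, 71.3%, 73.3% and 81.3%, and in mir-27b 82.3%, 71.9%, 70.7% and 84.4%. Inside reads led in mir-191, with 73.0%, 76.8%, 78.4% and 56.8%. The 50 nt libraries were again the higher in mir-27b, but both library kinds had the same leading class, unlike mir-144.

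The change in short share between genotypes was tested for each hairpin as an interaction of read class and genotype with edgeR's quasi-likelihood test, over the 240 hairpins with enough reads. No hairpin passed a Benjamini-Hochberg adjusted p of 0.05 in either direction (0% called), and 0 had an unadjusted p under 0.05. DESeq2 and limma also called 0, with 1 hairpin each at an unadjusted p under 0.05. The median log2 change over the 240 hairpins was 0.02.

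Both mutant libraries lay above both wildtype libraries in short share for 17 of the 240 hairpins (7.08%) and below for 11 (4.58%). By read length, both 46 nt libraries lay above both 50 nt libraries for 109 of the 240, and the reverse held for 81. The log2 ratio of short to 18 to 27 nt reads correlated over the 240 hairpins at r = 0.899 between the 50 nt libraries and at 0.907 between the 46 nt libraries, while the other 4 pairs of libraries gave 0.143 to 0.197. These values describe libraries and not replicates of hairpins, and what else the libraries of 1 read length share is not given in the sources used here.

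With the read length as a term in the edgeR fit, 0 of 240 hairpins passed the threshold, and 7 had an unadjusted p under 0.05. The short count of each hairpin, tested with edgeR over 187 hairpins, also gave 0 calls (0%), with 2 hairpins, mir-451a and mir-486, at an unadjusted p under 0.05. With the read length in the edgeR count fit, 0 passed and 19 of 187 had an unadjusted p under 0.05. DESeq2, without that term, called 1 hairpin lower in the mutant, mir-451a. Normalised short counts did not overlap between genotypes for 12 hairpins higher in the mutant (6.42%) and 20 lower (10.7%).

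The hairpin that DESeq2 called, mir-451a, lies beside mir-144 (chr11:78073170-78073241, plus strand) and inside no other annotated gene of its strand. In these bulk samples, fewer cells of a type and less RNA per cell cannot be told apart. The neighbouring mir-144 had 1670994 and 1490206 reads of 18 to 27 nt in wildtype against 4880720 and 3122426 in the mutant. Their log2 change was 0.35 (edgeR, adjusted p = 0.994). The cause of the change in mir-451a was not tested. Short reads of mir-451a numbered 161481 and 94943 in wildtype against 3630 and 3761 in the mutant. They were 62.6% and 22.0% of all short reads in wildtype and 0.460% and 2.23% in the mutant. Both mutant libraries were below both wildtype libraries. The log2 change of its short count was -6.23 with a standard error of 1.38 (edgeR, unadjusted p = 0.0133, adjusted p = 0.998). With the read length in the edgeR fit it was -6.13, with an adjusted p of 0.112. In DESeq2 the log2 change was -6.14 with an adjusted p of 5.23e-07. Its reads of 18 to 27 nt fell by 7.98 on the log2 scale (edgeR, adjusted p = 0.0261).

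The short reads of mir-451a thus had a smaller log2 change than its longer reads, and its short share was higher in the mutant. The share was 3.11% and 2.52% in wildtype against 7.72% and 12.3% in the mutant, where the widest exact 95% interval ran from 11.9% to 12.7%, and the genotypes did not overlap. The mean was 2.81% ± 0.423 (SD, n = 2) against 10.01% ± 3.23 (SD, n = 2). The log2 change was 1.91 with a standard error of 1.00 (edgeR, adjusted p = 1.00), 1.70 within the 46 nt libraries and 2.12 within the 50 nt libraries. With the read length in the fit the adjusted p was 0.736, and without short reads followed by TG as well it was 0.0671, so the share of mir-451a passed the threshold in none of these fits.

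The place of the short reads along mir-451a differed as well. Reads that start at base 17, the 5′ end of the arm, were 10.9% and 0.520% of them in wildtype against 48.2% and 41.7% in the mutant. Reads that start at bases 18 to 30 and end by base 46 were 89.1% and 99.5% in wildtype and 20.1% and 8.43% in the mutant. The most frequent of these in wildtype, bases 27 to 42, was counted 67669 and 23160 times in wildtype and 36 and 35 times in the mutant. Short reads ending at base 42 numbered 83344, 28111, 45 and 40, and those ending at base 39, the end of the most frequent longer read, 27676, 38953, 104 and 22.

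Reads that cross from base 46 to base 47 had the opposite order. Base 46 is the 30th of the precursor counted from base 17, and Ago2 is known to cut the precursor after that base. Reads that cross it are shown because a cut there would divide them. Lower case is the part up to base 46, and capitals are the part from base 47.
mir-451a, bases 41 to 57: gtaatgGTAACGGTTCT
mir-451a, bases 42 to 57: taatgGTAACGGTTCT
Short reads that cross numbered 4 and 19 in wildtype against 1148 and 1876 in the mutant, or 0.00248%, 0.0200%, 31.6% and 49.9% of the short reads of mir-451a. The 2 reads shown were counted 404 and 859 times and 367 and 633 times in the mutant libraries and 0 times in wildtype. Those ending at base 57 were 771 and 1492 in the mutant and 0 in both wildtype libraries, where 0 allows up to 3 reads each. The genotypes did not overlap in these counts, and within each read length the mutant library was higher. A test of these positions was not run.

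mir-486, another miRNA of red cell precursors whose guide arm needs Ago2 cutting to shed its partner strand (chr8:23142555-23142682, plus strand, in an intron of Ank1), gave 1 and 2 short reads in wildtype against 41 and 17 in the mutant. Reads that also match mir-3107, which lies antisense to it, are not counted here, and its 2 leading short reads lay on the 3p arm. Both mutant libraries were above both wildtype libraries. The log2 change of the short count was 3.08 with a standard error of 0.70 (edgeR, unadjusted p = 0.0144, adjusted p = 0.998), and that of its 18 to 27 nt reads was 4.39 (edgeR, adjusted p = 0.0154). The leading 18 to 27 nt read also lay on the 3p arm, bases 75 to 95, with 12, 41, 8669 and 4989 copies. On the 5p arm, bases 35 to 56 were counted 31, 13, 85 and 84 times. The change thus describes mainly the 3p arm. The short share of mir-486 was 0.649%, 0.733%, 0.343% and 0.307%. Its exact 95% intervals reached from 0.0164% to 3.56% and from 0.0888% to 2.62% in wildtype, so a difference in share could not be seen at this depth.

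The hairpins with the next smallest unadjusted p in each direction had small values. The short share of mir-30b, a relative of mir-30d, was 0.437%, 0.477%, 1.07% and 0.653%, a log2 change of 0.88. That of mir-378a, encoded in an intron of Ppargc1b, had a log2 change of 1.01 from 6, 19, 54 and 38 short reads. Lower values were those of mir-744, at -0.82, and mir-29c, at -0.86. In short count, mir-1981 stood at 0.97, mir-425 at -0.88 and mir-496a at -0.71. None of these passed a threshold.

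Hairpins were also read by lists of the cells that fetal liver can hold, and 0 of the tested members passed the edgeR threshold for short share in any list, where 0% of all hairpins passed. The erythroid list, with 10 tested, held 69.0%, 49.0%, 42.3% and 29.5% of all short reads. Nearly all of these came from mir-451a (62.6%, 22.0%, 0.460% and 2.23%) and mir-144 (5.81%, 26.0%, 40.6% and 25.9%). The list had a median log2 share change of -0.07, beside 0.02 over all hairpins. The 8 tested stem and progenitor hairpins had 0.13, the 8 tested let-7 hairpins -0.12, the 6 hepatocyte hairpins 0.19 and the 12 tested hairpins of the mir-17 to mir-92 group 0.21. The 5 tested myeloid and lymphoid hairpins had 0.31, with a summed short share of 3.62%, 17.95%, 15.7% and 3.67% that mir-142 set. Mesenchymal hairpins (4 tested) stood at -0.22, epithelial (5) at -0.05 and endothelial (1) at -0.10.

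For the let-7 family, which rises late in development, the summed short share was 1.65%, 1.09%, 0.721% and 1.73%, higher in the 50 nt libraries. Neuron and muscle hairpins, which should be scarce in liver, had 24, 3, 3 and 3 short reads in all. In mir-206, a muscle hairpin of that list, the 19 nt read of bases 46 to 64 was counted 693, 0, 0 and 48 times. Its read of bases 46 to 67 was counted 0, 25, 35 and 0 times. Wildtype replicate 1 thus stood above the other libraries in these hairpins, and the cause was not tested. The 7 tested hairpins known to be made without Drosha or Dicer had a median log2 share change of 0.41, with both mutant libraries higher for 2 and lower for 1, where 7.08% and 4.58% of all hairpins did so. mir-451a is among them, and mir-320, which needs no Drosha, had shares of 3.32%, 3.52%, 2.48% and 3.59%.

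Short hairpin reads were 49.6%, 67.9%, 64.5% and 24.6% of all 16 and 17 nt reads. A further 8.35%, 6.38%, 7.27% and 17.4% of the short reads on hairpins matched several hairpins and were left out. Of those counted, 0.348%, 0.264%, 0.322% and 1.09% also matched another annotated transcript. The last base of short reads was T in 46.6%, 82.7%, 82.9% and 51.1%, and their GC content was 39.1%, 36.0%, 35.5% and 38.4%, again with the 46 nt libraries together and the 50 nt libraries together.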

How the data were processed

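The deposited files hold counts: for each library the authors listed each distinct sequence and how often it was read, not normalized. Per the submitters' processing notes cutadapt, a program that removes adapters, was used, without a version. Trimming settings, aligner and genome build are not given in the sources used here. Sequences listed more than once (in replicate 1 of wildtype 4152 repeats, in replicate 2 of Ago2 CD 5617) were summed, and reads with an undetermined base (0.183% to 0.256%) were left out.

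Reads were matched exactly to the sense strand of GENCODE vM21 hairpins with Python 3.11.15. Arms are the sides of the hairpin's midpoint. The reference read of an arm is its most frequent 18 to 27 nt read by mean share over libraries. Hairpin bases are counted from 1 at the 5′ end. RefSeq mature sequences were found for 456 of the 650 hairpins. TG and ATC were counted in the hairpin next to each read whose hairpin extends far enough.

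Tests ran in R 4.3.3 with edgeR 4.0.16 (quasi-likelihood, two-sided, Benjamini-Hochberg adjusted p, threshold 0.05), with DESeq2 1.42.0 and limma 3.58.1 as alternatives. The share test used hairpins with at least 20 reads of 18 to 27 nt in every library and at least 10 short reads over all libraries, with 1 coefficient per library. The pseudocount of the log2 ratio was 0.5. Procedures were tested on simulated counts with a fixed spread and no difference between read lengths. How they behave with the spread of these libraries was not tested.

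Named hairpins are the 10 with most short reads, mir-451a, mir-144 and mir-486, up to 10 past a threshold per test and direction (filled to 3 by unadjusted p), the 5 highest and 5 lowest short shares, up to 5 leading each end class, and up to 2 per cell type list. Of these, hairpins that would repeat a pattern are left unnamed in the text. mir-25, a second member of its list, and the positions in mir-142, mir-136 and mir-451a and the bases next to read ends were looked at after the values were seen. The members and lists were chosen with earlier results of these data known.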

Additional observations from a re-analysis of the deposited data

How the results depend on the processing

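The difference between genotypes in short share (0.302 points) reversed to -0.382 with 16 nt reads only and to -0.399 without mir-451a. Leaving out 1 library at a time moved it between -1.40 (without Ago2 CD replicate 1) and 2.01, with -0.748 without wildtype replicate 1. The difference in the share from the 5′ end (8.82 points) reversed to -3.99 without mir-451a and ran from -8.93 (without Ago2 CD replicate 1) to 26.6 with 1 library left out, with -5.69 without wildtype replicate 1. The causes of these reversals were not tested. With 1 library left out, the deficit of short reads at the 5′ end ran from -56.7 to -42.9 points and that at the 3′ end from -41.8 to -34.7, and the counts of hairpins past the edgeR threshold stayed at 0. In short count, DESeq2 called 1 hairpin where edgeR called 0.

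With the replicate number as a block, edgeR called 0 hairpins in share and 0 in count. Same-numbered libraries deviated in opposite directions from their group means (r = -0.884), and the crossed pairing, which equals the read length term and was added after the data were seen, also gave 0 and 0 calls. The alternatives that leave out short reads next to TG, or reads found in other transcripts, were also chosen after seeing the data. Without short reads next to TG the 4 library-level values kept their signs over all libraries. The difference in short share between the 50 nt libraries then turned from -0.354 to 0.269 points. Of the library-level values, only the short share was run without reads in other transcripts, and its sign held (0.291 points). The median log2 share change was then -0.02 beside 0.02. Uniqueness in the genome was not run, since no genome was given. With 2 libraries per genotype, permutation tests could not reach 0.05, and hairpins with few reads of 18 to 27 nt were not tested.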
